A study of Mus musculus with 12 samples.

Results

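The heterotrimeric G protein subunits and the adenylyl cyclases were examined as a group in the cortex of lupus-prone mice. Members were chosen by gene name: every probe, other than the array's control spots, whose gene name is that of a Gα subunit (Gna), a Gβ subunit (Gnb), a Gγ subunit (Gng or Gngt) or an adenylyl cyclase (Adcy). The arrays carried 43 such genes on 64 probes, and 36 of them, on 49 probes, were quantified in all 12 mice, among 17302 quantified genes and 22419 quantified probes. The 7 genes without a quantified spot were Adcy10 (the soluble cyclase), Gna14, Gnb3, the transducin and gustducin α subunits Gnat1, Gnat2 and Gnat3, and the rod γ subunit Gngt1. No probe of these 7 was called well above background in more than 7 of the 12 mice, and the probe of Gngt1 and 2 of the 3 Adcy10 probes were so called in 0.

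Cortex RNA came from adult female mice killed in diestrus, 4 in each of 3 groups. MRL/lpr mice carry the lpr loss-of-function mutation of Fas and develop a lupus-like disease. Fn14ko mice (labelled Fn14koMRL) are MRL/lpr mice that also lack Fn14, the receptor of the cytokine TWEAK, from a germline knockout backcrossed to that strain, and were littermates of the MRL/lpr mice. MRL/+ mice (labelled MRL/MpJ) share the MRL background without the lpr mutation, carry Fn14, and were obtained from a different source. The 6 Agilent arrays each took a pair of mice from a single group (replicates 1 and 2, or 3 and 4), the odd-numbered mouse in Cy3 and the even-numbered mouse in Cy5, and both arrays of a group shared a slide with no other group on it, which means that effects of slide and of group cannot be told apart. Signals are background-corrected intensities in units of the median retained spot of the sample (median spot = 1). They compare mice for a given probe, and give no order of abundance between genes.

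A heterotrimeric G protein couples a receptor in the membrane to enzymes and channels inside the cell. The activated receptor makes the α subunit exchange GDP for GTP, and the α subunit then parts from the βγ dimer. Gs class α subunits stimulate adenylyl cyclase, Gi class α subunits mostly inhibit it, and Gq class α subunits activate phospholipase Cβ. The βγ dimer opens potassium channels and acts on some of the cyclases. Adenylyl cyclases make cAMP, which activates protein kinase A, and in cortical neurons this route is known for its part in synaptic plasticity.

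The 2 genes of the set that passed the threshold were each read by a single 60-base probe. The sequences are shown in the sense direction because each result below rests on 1 stretch of the transcript. Both probes lie on the plus strand of mm9, the build in the array files, at chr12:4211535-4211594 for Adcy3 and chr17:25855911-25855970 for Gng13.
Adcy3: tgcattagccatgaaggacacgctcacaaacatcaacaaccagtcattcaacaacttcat
Gng13: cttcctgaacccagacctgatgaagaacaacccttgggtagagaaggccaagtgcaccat
No part is in capitals, since no position within a probe was compared. Each sequence has 2 of its 3 forward reading frames free of stop codons. Over the 1986 pairs of probes from different genes of the set, the longest run of identical bases shared by a pair was 11, between a Gnb3 and a Gnb2 probe, against a median of 5.

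Few of the 36 genes differed between groups past the threshold, an adjusted p of 0.05 by limma over all genes. In MRL/lpr against MRL/+, Gng13 was higher and Adcy3 was lower, and the other 34 genes did not pass. Those 2 genes are 5.56% of the set, where 14.4% of all genes passed in this comparison (6.03% higher and 8.37% lower). The study lists Adcy3, Adcy5, Adcy6 and Gngt2 in this comparison with the opposite direction to the values here. For Adcy3 it gives a rise in MRL/lpr, the largest fold change of the neurotransmission genes it tabulates, where the value here was -0.96. The values here for Adcy5, Adcy6 and Gngt2 were 0.10, 0.27 and -0.23. The study lists Gnal, Gng3 and Gng7 with the same direction. Of these genes only Adcy3 passed here. In Fn14ko against MRL/+ 0 of the 36 passed, with 0.954% of all genes called, and in MRL/lpr against Fn14ko 0 of the 36 passed, with 4.57% of all genes called. At an unadjusted limma p under 0.05 these 3 comparisons, in the same order, had 7, 7 and 4 of the 36 (19.4%, 19.4% and 11.1%), where 34.7%, 21.9% and 18.6% of all genes did. The methods' t-test, unadjusted, called 5, 4 and 6 of the 36, and 24.4%, 15.2% and 22.1% of all genes. The study also required a fold change above a cut-off set for each gene, which was not applied here.

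The median log2 fold change of the 36 genes was 0.20 in MRL/lpr against MRL/+, where that of all genes was -0.10, with 24 of the 36 above 0, but it was -0.04 with 75th-percentile scaling, which moved the median of all genes to -0.34, and -0.17 with Agilent's processed signal. With dim spots kept it was 0.70 over 43 genes (all genes -0.07). That setting scales to the median of more spots, and in both comparisons with MRL/+ it raised Adcy3 and Gng13 by a shared amount. All genes then also include genes with dim spots only, so the 2 medians are not on a like footing. In Fn14ko against MRL/+ the median of the 36 genes was 0.10 (all genes -0.10, 22 of 36 above 0). It was -0.15 with 75th-percentile scaling, where the median of all genes was -0.35. It was -0.22 with Agilent's processed signal and 0.75 over 43 genes with dim spots kept. In MRL/lpr against Fn14ko it was -0.10 (all genes -0.07; 14 of 36 above 0). The first and second of these comparisons share the MRL/+ mice. Counted by mouse, the MRL/lpr values did not overlap the MRL/+ values in 6 of the 36 genes (16.7%), where 23.9% of all genes did not overlap. The number was 4 (11.1%) in Fn14ko against MRL/+, with 13.5% of all genes, and 6 (16.7%) in MRL/lpr against Fn14ko, with 20.3% of all genes. The shares of the set were somewhat below those of all genes. With only 36 genes, and comparisons that share mice, no result about the set was drawn from this.

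**Figure D1:**
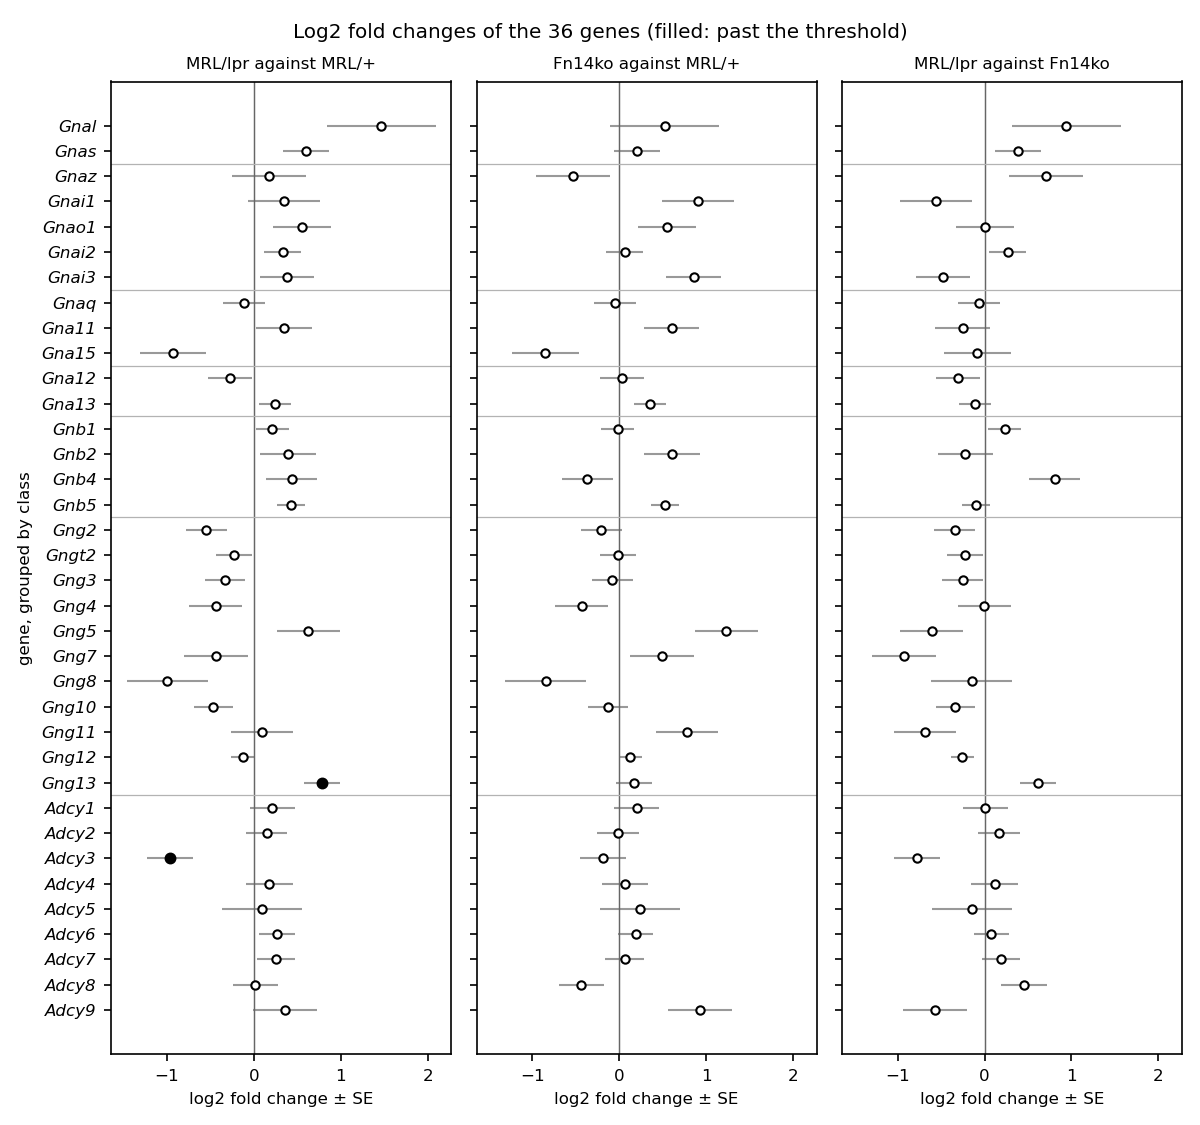
Log2 fold change with its standard error (x axis) for each of the 36 quantified genes (y axis, grouped by class) in the 3 comparisons, from the limma fit to 12 mice; filled points passed the threshold. The 2 filled points are Gng13 (0.78) and Adcy3 (-0.96), both in MRL/lpr against MRL/+.

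Several features of the samples moved with the groups. Tnfrsf12a, the gene of Fn14, had signals of 0.604 to 0.777 in Fn14ko, 1.38 to 1.90 in MRL/lpr and 0.943 to 1.28 in MRL/+. Summed blood markers (5 of 6 on the array quantified) were 243 to 710 in MRL/lpr, 92.0 to 236 in Fn14ko and 77.3 to 124 in MRL/+. Summed endothelial markers (7 of 7) were 23.5 to 25.3 in MRL/lpr, 16.5 to 24.0 in Fn14ko and 11.3 to 15.3 in MRL/+, and of the 7 Flt1, Ly6c1 and Slco1a4 passed in MRL/lpr against MRL/+, all higher, while Cdh5 (-0.89) and Pecam1 (-0.24) lay below 0 and did not pass. Summed oligodendrocyte markers (7 of 7) were 44.1 to 65.9 in MRL/lpr, 67.4 to 88.2 in Fn14ko and 68.3 to 82.6 in MRL/+. The cortical neuron markers (8 of 8) gave sums of 84.8 to 127 in MRL/lpr, 77.2 to 128 in Fn14ko and 94.9 to 108 in MRL/+, which overlapped between groups, but Nrgn alone made up 55.6% to 78.1% of each sum. Singly, 5 of the 8 neuron markers passed in MRL/lpr against MRL/+, with Tbr1 (1.53), Cux2 (1.57) and Rorb (0.69) higher and Slc17a7 (-1.08) and Neurod6 (-1.70) lower. The part of these cell types in the results was not tested, and in whole tissue fewer cells of a type and less RNA per cell cannot be told apart.

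Gng13 encodes a γ subunit known from taste cells and retinal ON bipolar cells. Its signals were 11.6, 11.5, 12.9 and 12.5 in the MRL/lpr mice (replicates 1 to 4), 7.98, 7.75, 9.51 and 6.72 in the Fn14ko mice, and 7.06, 5.03, 10.02 and 6.94 in the MRL/+ mice. All 4 MRL/lpr mice were above all 8 other mice, while the Fn14ko and MRL/+ values overlapped. The means were 12.1 ± 0.667, 7.99 ± 1.15 and 7.26 ± 2.06 (SD over the 4 mice of a group). The log2 fold change of MRL/lpr against MRL/+ was 0.78 (SE 0.21, limma adjusted p = 0.0278), and the 2-sided exact permutation p was 0.0286, the smallest that the 70 divisions of 8 mice allow. Against Fn14ko it was 0.61 (SE 0.21, limma adjusted p = 0.128), with the same exact permutation p of 0.0286. In Fn14ko against MRL/+ it was 0.17 (limma adjusted p = 0.6005). The permutation test exchanged single mice, although the mice lay in pairs on arrays, with a consensus correlation within arrays of 0.316. Its p therefore makes no allowance for the shared arrays. The Gng13 call was lost in 3 of the 8 fits that left out a single MRL/lpr or MRL/+ mouse, those without MRL/lpr replicate 2 (0.74, adjusted p = 0.0608), MRL/lpr replicate 4 (0.71, adjusted p = 0.0624) or MRL/+ replicate 4 (0.75, adjusted p = 0.139). Computed from Agilent's processed signal, the Gng13 value was 0.28 (limma adjusted p = 0.185).

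Adcy3 encodes the cyclase of olfactory neurons and of primary cilia. Its signals were 0.371, 0.225, 0.316 and 0.298 in MRL/lpr, 0.726, 0.529, 0.608 and 0.286 in Fn14ko, and 0.742, 0.602, 0.639 and 0.396 in MRL/+. The MRL/lpr values were below all 4 MRL/+ values and overlapped those of Fn14ko through Fn14ko replicate 4. The study gives the opposite direction, with Adcy3 strongly higher in MRL/lpr than in MRL/+. Relative to MRL/+ the MRL/lpr log2 fold change was -0.96 (SE 0.26, limma adjusted p = 0.0303), -0.77 in MRL/lpr against Fn14ko (adjusted p = 0.127) and -0.19 in Fn14ko against MRL/+ (adjusted p = 0.647). These are dim signals: the spot was well above background in all 8 MRL/lpr and Fn14ko mice and in 2 of the 4 MRL/+ mice. The lowest signal of any retained spot was 0.344, 0.5003, 0.0859 and 0.236 in the 4 MRL/+ mice and 0.0640 to 0.159 in the MRL/lpr mice. With dim spots kept, the log2 fold change of Adcy3 was -0.36 (limma adjusted p = 0.511). That setting scales to the median of more spots, which raised Gng13 by the same amount, and 0.0755% of all genes passed in it. Of the 8 fits that left out a single mouse, 4 lost the Adcy3 call: those without MRL/lpr replicate 1 (-0.99, adjusted p = 0.0551), 2 (-0.91, adjusted p = 0.0584) or 3 (-0.86, adjusted p = 0.0675), or without MRL/+ replicate 4 (-1.02, adjusted p = 0.105). The part of these differing floors in the result was not tested.

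**Figure D2:**
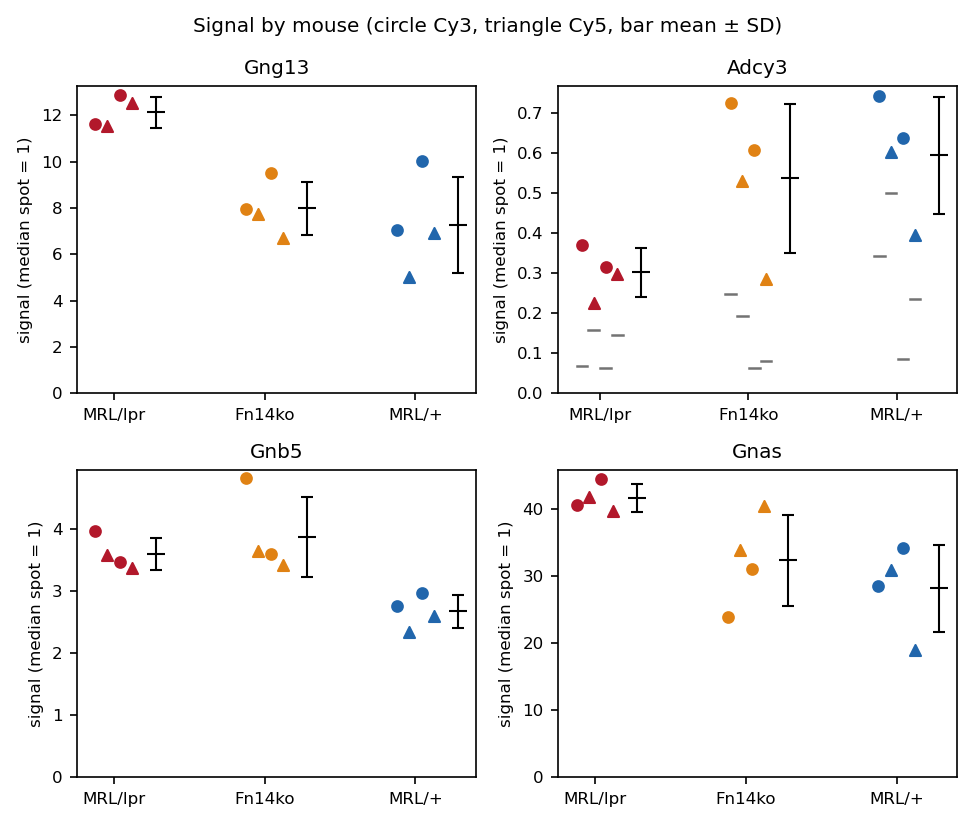
Signal of each mouse (y axis, median spot = 1) in the 3 groups (x axis) for Gng13, Adcy3, Gnb5 and Gnas; circles are Cy3 mice, triangles Cy5 mice, and the bars beside them the mean ± SD of 4 mice. In all 4 panels the MRL/lpr and MRL/+ points do not overlap; grey dashes in the Adcy3 panel mark the lowest signal of any retained spot in that mouse, which reaches 0.5003 in MRL/+ replicate 2.

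Among the Gs class, Gnas encodes the stimulatory α subunit. Its signals were 40.6, 41.8, 44.5 and 39.8 in MRL/lpr, 24.0, 33.9, 31.0 and 40.5 in Fn14ko, and 28.5, 30.9, 34.2 and 19.1 in MRL/+. MRL/lpr stood above MRL/+ without overlap, and Fn14ko replicate 4 reached the MRL/lpr range. The log2 fold change in MRL/lpr against MRL/+ was 0.60 (SE 0.26), which did not pass (limma adjusted p = 0.129). Tested singly, the 2 quantified Gnas probes gave 0.60 (adjusted p = 0.149) and 0.63, and the second, on chromosome 2 from 174163501 to 174163560, passed among single probes (adjusted p = 0.0487).

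Gnal, which encodes the Gs class α subunit of olfactory neurons and the striatum, had 3.80, 3.32, 9.72 and 34.2 in MRL/lpr, 6.25, 5.16, 3.45 and 2.77 in Fn14ko, and 2.49, 3.07, 3.34 and 2.82 in MRL/+. The high values are both on array 2 of MRL/lpr, and the 1.47 log2 fold change of MRL/lpr against MRL/+ did not pass (SE 0.63, limma adjusted p = 0.120). Without that array it was 0.29 (adjusted p = 0.568), and without array 1 it was 2.65 (adjusted p = 0.00535). Only 1 of the 2 Gnal probes had the pattern, with 6.42, 5.90, 17.8 and 66.8 in the MRL/lpr mice, where the other had 1.19, 0.734, 1.62 and 1.55. The MRL/lpr arrays had rows in which many spots were high in both mice of the array. A spot stood apart if both mice of its array were at least 2 times above all 10 mice of the other arrays. On MRL/lpr array 2 this held for 155 of 24255 retained spots. Of these 155, 140 lay in the last 14 rows of the array, where they were 28.6% of the retained spots. The bright Gnal spot lies there, in row 530 of 532, but was not 1 of the 155. It read 17.8 in MRL/lpr replicate 3, under 2 times the 9.59 of Fn14ko replicate 1. On MRL/lpr array 1 there were 226 such spots, 180 of them in rows 477 to 518, and on the other 4 arrays there were 2, 1, 0 and 0.

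**Figure D3:**
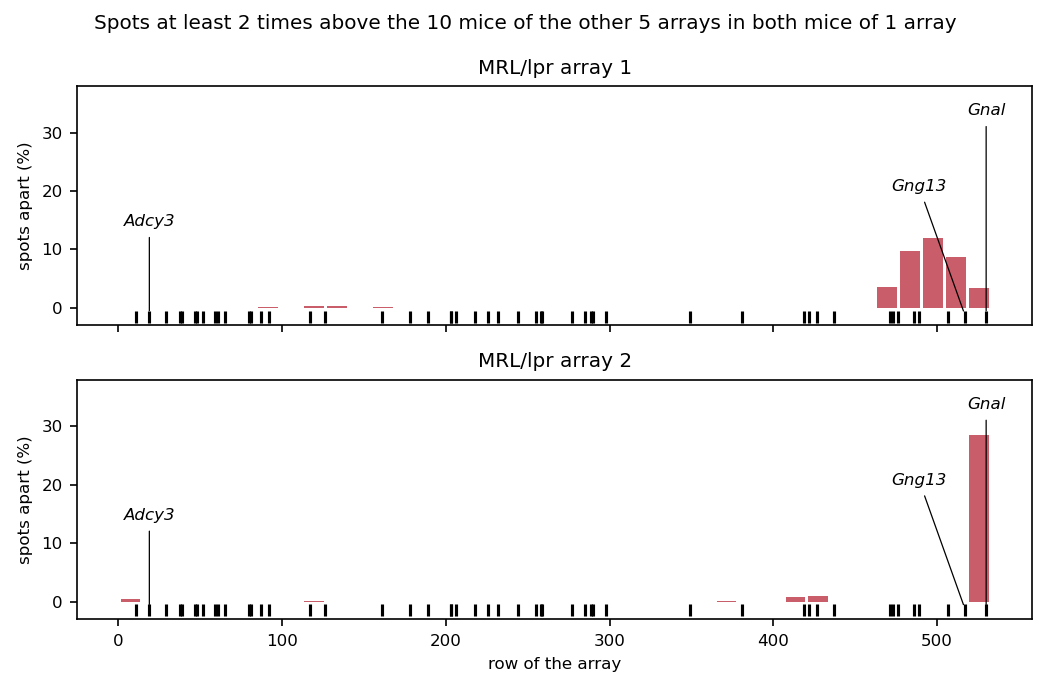
Share of retained spots (y axis, percent) that were at least 2 times above all 10 mice of the other arrays in both mice of an MRL/lpr array, in bands of 14 array rows (x axis); the black ticks below 0 mark the rows of the 49 spots of the set. The bars are near 0 except towards the bottom of each array, where the highest reach 12% on array 1 and 28.6% on array 2, and Gnal and Gng13 lie in those rows while Adcy3 does not.

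Of the 49 spots of the set, 5 lie in bands where at least 5% of the retained spots stood apart on an MRL/lpr array: both Gnal spots and 1 each of Gna13, Gnb5 and Gng13. The Gng13 spot is in row 517, and of the 466 retained spots within 5 rows of it, 8.58% stood apart on MRL/lpr array 1 and 0% on array 2. The Gng13 signals of the 2 arrays were alike, 11.6 and 11.5 on array 1 and 12.9 and 12.5 on array 2. Without array 1 its log2 fold change against MRL/+ was 0.85 (limma adjusted p = 0.103) and without array 2 it was 0.72 (adjusted p = 0.148). For Adcy3, in row 19, the shares were 0% on both arrays. The part of these rows in the Gng13 result was not tested. With all such bands left out, an alternative chosen after seeing the data, Gnal and Gng13 had no value, and Adcy3 (-0.93, adjusted p = 0.0239) and Gnb5 (0.68, adjusted p = 0.0166) passed among the remaining 34 genes, with 17.4% of all genes called.

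All 5 quantified Gi class genes (Gnai1, Gnai2, Gnai3, Gnao1 and Gnaz) lay above 0 in MRL/lpr against MRL/+. They ran from 0.17 to 0.56, with 0 past the threshold. With 75th-percentile scaling or loess 4 of the 5 lay above 0, and with Agilent's processed signal 2 of the 5. With the Cy3 mice alone 3 of the 5 did, with a median of 0.05. Without both Cy5 mice of MRL/+ 4 of the 5 did, from -0.38 to 0.12 with a median of 0.026. Gnai2, an inhibitory α subunit, had 21.5, 33.9, 23.4 and 27.3 in MRL/lpr, 17.4, 21.9, 21.2 and 27.5 in Fn14ko, and 17.6, 20.9, 24.7 and 20.4 in MRL/+, and the groups overlapped. Gnai3 had 3.25, 2.96, 3.32 and 3.65 in Fn14ko against 2.21, 1.35, 2.64 and 1.37 in MRL/+. These did not overlap, with a log2 fold change of 0.86 (SE 0.31) that did not pass (limma adjusted p = 0.163). Gnao1, the α subunit of Go, had 5.66, 3.24, 8.18 and 2.10 in MRL/+, a range that held all 8 other mice. Gnaz, the α subunit of Gz, had a probe that gave 0.186, 0.228, 1.36 and 3.42 in the MRL/lpr mice, high on array 2 only, and a second probe that gave 1.07, 0.653, 0.910 and 0.628.

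In the Gq class, Gnaq had 5.62, 5.65, 6.65 and 6.27 in MRL/lpr, 5.38, 6.21, 5.90 and 8.05 in Fn14ko, and 5.44, 4.89, 9.40 and 7.19 in MRL/+, with overlap in every comparison. Gna11, the close relative of Gnaq, was 4.30 to 5.21 in MRL/lpr, below the 5.34 to 6.23 of Fn14ko without overlap (-0.25, limma adjusted p = 0.754). Gna15, known from blood cells, had 0.177, 0.283, 0.169 and 0.227 in MRL/lpr and 0.409, 0.556, 0.231 and 0.483 in MRL/+, where the log2 fold change was -0.93 (SE 0.38, limma adjusted p = 0.109). As for Adcy3, the Gna15 spot was well above background in 2 of the 4 MRL/+ mice.

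In the G12 class, Gna12 had 1.87, 2.22, 2.00 and 2.62 in MRL/lpr, 2.11, 3.12, 2.05 and 3.72 in Fn14ko, and 2.78, 2.90, 2.89 and 1.99 in MRL/+. Its 2 probes differed. The brighter gave -0.11 in MRL/lpr against MRL/+ (adjusted p = 0.802), and the dimmer, on chromosome 5 from 141235999 to 141236058, gave -1.98 (adjusted p = 0.00256). The dimmer probe read 0.165, 0.171, 0.156 and 0.225 in MRL/lpr, 0.341, 0.274, 0.163 and 0.164 in Fn14ko, and 0.622, 0.757, 0.573 and 0.888 in MRL/+. It was also the single probe of the set past the threshold in Fn14ko against MRL/+ (-1.64, adjusted p = 0.0362), and it was well above background in 2 of the 4 MRL/+ mice. Gna13 had 1.36 to 1.40 in MRL/+ and 1.55 to 1.88 in Fn14ko, without overlap (0.35, SE 0.19, limma adjusted p = 0.268).

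The 4 quantified β subunits (Gnb1, Gnb2, Gnb4 and Gnb5) all lay above 0 in MRL/lpr against MRL/+, from 0.21 to 0.44, with 0 past the threshold, but 3 of the 4 did so with 75th-percentile scaling or loess and 2 of the 4 with Agilent's processed signal. Gnb2 had 17.8, 23.5, 36.5 and 30.5 in MRL/lpr, 28.1, 30.9, 30.4 and 32.3 in Fn14ko, and 21.6, 17.4, 31.4 and 13.2 in MRL/+, with overlap between all groups. Gnb5, the β subunit that pairs with RGS proteins such as Rgs9 and Rgs11 in place of a γ subunit, had 3.97, 3.58, 3.47 and 3.37 in MRL/lpr, 4.83, 3.64, 3.60 and 3.43 in Fn14ko, and 2.76, 2.35, 2.98 and 2.60 in MRL/+. All 8 mice of the MRL/lpr and Fn14ko groups were above the 4 MRL/+ mice. The log2 fold changes were 0.43 in MRL/lpr (SE 0.16, limma adjusted p = 0.0872) and 0.53 in Fn14ko (adjusted p = 0.117), and neither passed. Of its 2 probes, 1 passed singly in MRL/lpr against MRL/+ (0.66, adjusted p = 0.0290) and the other gave 0.20 (adjusted p = 0.451).

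The γ subunits lay mostly below 0 in MRL/lpr against MRL/+: 8 of 11 genes, with a median of -0.33, a range from -0.99 to 0.78, and only Gng13 past the threshold. The number below 0 was 7 to 9 of 11 with background subtraction, processed signal, loess or 75th-percentile scaling, and 2 of 12 with dim spots kept. The last of these scales to the median of more spots, which raised Gng2, Gng3, Gng10 and Gng13 all by the same amount. In MRL/lpr against Fn14ko 10 of the 11 lay below 0, with a median of -0.26, and Gng13 was the exception. Gng2, a widely used γ subunit of neurons, had 3.93, 3.64, 4.09 and 3.67 in MRL/lpr, 4.09, 5.05, 4.47 and 6.04 in Fn14ko, and 5.52, 4.50, 7.90 and 5.03 in MRL/+. All 4 MRL/lpr mice were below all 8 others, narrowly so against Fn14ko replicate 1. The log2 fold change was -0.55 against MRL/+ (SE 0.24, limma adjusted p = 0.120) and -0.34 against Fn14ko (adjusted p = 0.487). Gng10 was 4.48 to 5.30 in MRL/lpr and 5.36 to 7.98 in MRL/+, without overlap (-0.46, SE 0.23, limma adjusted p = 0.161).

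Gng3, a neuronal γ subunit, had 38.6, 31.8, 36.5 and 39.1 in MRL/lpr, 34.99, 47.4, 44.2 and 48.3 in Fn14ko, and 32.7, 38.5, 60.3 and 58.0 in MRL/+. The MRL/+ mice split by array, and those of array 1 lay within or next to the MRL/lpr range. The log2 fold change in MRL/lpr against MRL/+ was -0.33 (SE 0.23, limma adjusted p = 0.308). Without array 1 of MRL/+ it was -0.70 and passed (adjusted p = 0.0393), and without array 2 of MRL/+ it was 0.035 (adjusted p = 0.910). Gng2, Gng3 and Gng10 each passed, lower in MRL/lpr than in MRL/+, with background subtraction, with Agilent's processed signal, with loess, and with only spots well above background in all 12 samples. In those fits 29.7%, 17.7%, 27.1% and 29.7% of all genes passed, against 14.4% in the main fit. The last of them scales to the median of fewer spots, which lowered these genes and Gng13 by the same amount. With dim spots kept Gng2, Gng3 and Gng10 lay above 0 (0.049, 0.27 and 0.13). That setting scales to the median of more spots, which raised these genes, Adcy3 and Gng13 all by the same amount.

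Gng5 was 3.93 to 4.56 in Fn14ko, above the 2.11 to 3.501 of MRL/lpr and the 2.80, 1.25, 3.46 and 0.793 of MRL/+. Its log2 fold change in Fn14ko against MRL/+, 1.23 (SE 0.36), was the highest of the 36 genes in that comparison and did not pass (limma adjusted p = 0.107). Gng8, known from olfactory and vomeronasal neurons, had the lowest value of the set in MRL/lpr against MRL/+, -0.99 (SE 0.47, limma adjusted p = 0.149). Its MRL/+ signals were 1.18, 0.718, 0.229 and 0.524, of which 2 were well above background. Gng7 had 1 bright probe (-0.39 in MRL/lpr against MRL/+, adjusted p = 0.467) and 1 dim probe that passed singly (-1.38, adjusted p = 0.0111).

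Of the 9 quantified adenylyl cyclases, all but Adcy3 lay above 0 in MRL/lpr against MRL/+, from 0.02 to 0.36, with 0 past the threshold among those 8, but 3 of the 9 lay above 0 with 75th-percentile scaling and 5 of the 9 with loess or processed signal. Adcy1, the calmodulin-stimulated cyclase of cortical and hippocampal neurons, had 28.7, 32.3, 22.2 and 30.3 in MRL/lpr, 21.95, 28.9, 33.1 and 28.7 in Fn14ko, and 23.9, 17.8, 33.5 and 24.2 in MRL/+, with overlap throughout. Adcy9 was 8.83 to 12.2 in Fn14ko, above the 5.39 to 8.62 of MRL/lpr without overlap (MRL/lpr against Fn14ko -0.57, limma adjusted p = 0.455). Against MRL/+ the Fn14ko value of Adcy9 was 0.93 (SE 0.37, adjusted p = 0.185). Adcy2, Adcy4, Adcy6, Adcy7 and Adcy8 overlapped between the groups in all 3 comparisons.

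**Figure D4:**
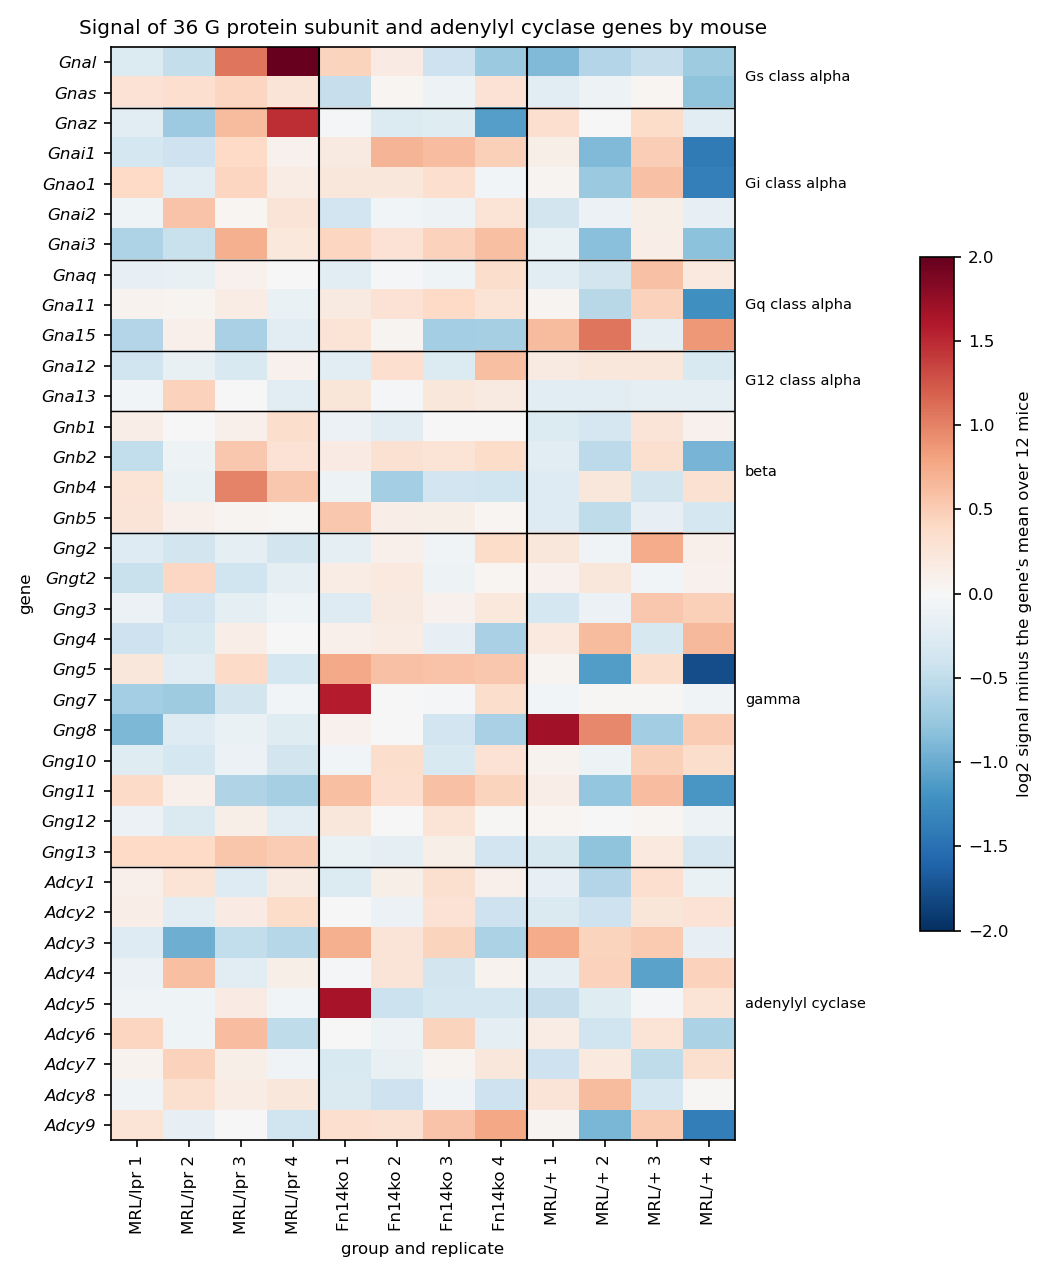
Log2 signal of each of the 36 quantified genes (rows, by class) in each mouse (columns, by group and replicate), minus the gene's mean over the 12 mice; the colour scale ends at -2 and 2. Single dark cells mark Adcy5 and Gng7 in Fn14ko replicate 1, Gnal in MRL/lpr replicate 4 and Gng8 in MRL/+ replicate 1, and a blue column in MRL/+ replicate 4 marks genes such as Gng5, Gnai1 and Adcy9.

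Adcy5, the main cyclase of the striatum, was high in a single mouse. Its signals were 2.99, 2.96, 3.52 and 3.03 in MRL/lpr, 9.91, 2.35, 2.46 and 2.47 in Fn14ko, and 2.29, 2.66, 3.11 and 3.83 in MRL/+. All 3 Adcy5 probes were highest in Fn14ko replicate 1. Gng7, the γ subunit that pairs with the Gnal product in the striatum, followed the same mouse, with 16.2, 5.51, 5.37 and 6.96 in Fn14ko, 3.43, 3.34, 4.23 and 5.26 in MRL/lpr, and 5.25, 5.57, 5.55 and 5.24 in MRL/+. Fn14ko replicate 1 was 4.09 times the mean of the other 3 Fn14ko mice for Adcy5 and 2.72 times for Gng7, and no other gene of the set reached 2 times, a ratio that 0.798% of all genes reached. The striatum markers were high in the same mouse: 11 of the 12 quantified (of 13 on the array, Isl1 not quantified) were highest there, at 4.33 to 11.9 times the mean of the other 3 Fn14ko mice. Their sum was 188 in Fn14ko replicate 1, 17.6 to 31.8 in the other Fn14ko mice, 24.6 to 48.4 in MRL/lpr and 13.7 to 24.1 in MRL/+. The part of striatal tissue in the Adcy5 and Gng7 values was not tested.

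Without Fn14ko replicate 1, the log2 fold change of Adcy5 in Fn14ko against MRL/+ went from 0.24 to -0.28, and that in MRL/lpr against Fn14ko from -0.15 to 0.38. The limma adjusted p for these was 0.742 and 0.913 with all mice and 0.321 and 0.329 without that mouse. That of Gng7 in MRL/lpr against Fn14ko went from -0.93 (SE 0.37, adjusted p = 0.200) to -0.53 (adjusted p = 0.185). The MRL/lpr values of Gng7 did not overlap those of the 4 Fn14ko mice with or without that mouse.

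**Figure D5:**
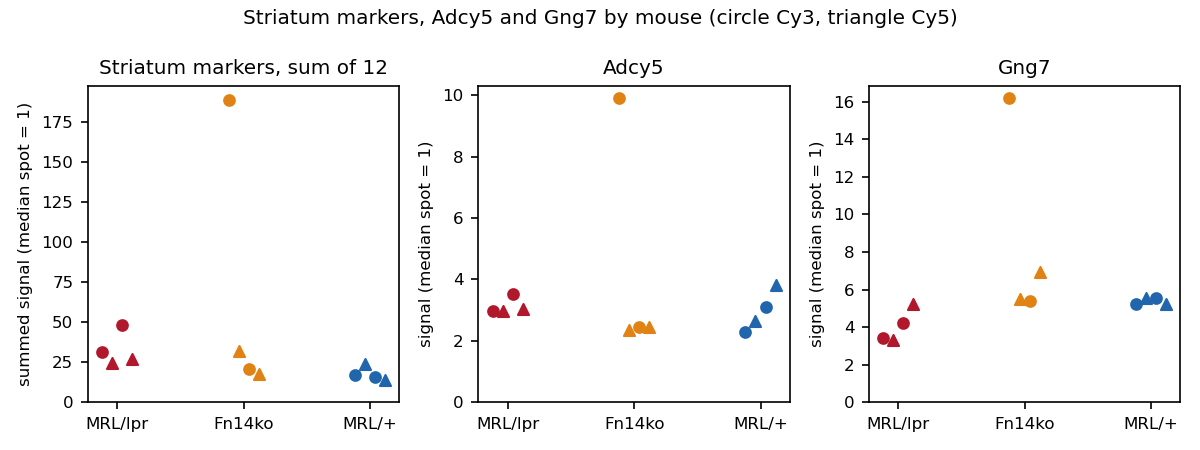
Summed signal of 12 striatum markers, and signal of Adcy5 and Gng7, in each mouse (y axes, median spot = 1) by group (x axes); circles are Cy3 and triangles Cy5 mice. Fn14ko replicate 1 is the highest point in all 3 panels, at 188, 9.91 and 16.2.

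The Cy5 mice of MRL/+ (replicates 2 and 4) stood apart for part of the set. In 9 of the 36 genes (25%) both were below all 10 other mice, against 11.5% of all genes. These were Adcy9, Gna11, Gnai1, Gnai3, Gnao1, Gnb2, Gnb5, Gng11 and Gng5. For Gng5 the Cy5 mice of MRL/+ were lower than its Cy3 mice by a log2 difference of -1.65, where the same difference was -0.59 in MRL/lpr and -0.10 in Fn14ko. These 2 channels also had fewer spots called well above background, 35.002% and 21.2% of spots, than the other 10 (56.6% to 70.03%). With the Cy3 mice alone, the median log2 fold change of the 36 genes in MRL/lpr against MRL/+ was -0.04 in place of 0.20, and Adcy3 (-1.01, limma adjusted p = 0.0264) and Gnb4 passed, while Gng13 was 0.54 (adjusted p = 0.256). In that fit 7.84% of all genes passed. Without the 2 Cy5 mice of MRL/+, 0 of the 36 passed in either comparison with MRL/+, and of all genes 5.03% passed for MRL/lpr and 0.0347% for Fn14ko. The part of these channels in the results was not tested.

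Dim and bright probes of the set differed in MRL/lpr against MRL/+. The 17 probes with a mean signal below the median spot had a median log2 fold change of -0.24 and 3 calls, all lower, while the 32 brighter probes had a median of 0.26 and 3 calls, all higher. Over all probes the medians were -0.57 for dim and 0.17 for bright probes, with 13.7% of the dim probes called lower and 1.36% called higher. Of single probes, 6 of 49 passed in this comparison (12.2%, against 15% of all probes), 1 in Fn14ko against MRL/+ (2.04%, against 1.09%) and 0 in MRL/lpr against Fn14ko (against 4.03%). Among the 11 genes with several quantified probes, the probes had the same sign in 5 in MRL/lpr against MRL/+, and the median gap between the highest and lowest probe of a gene was 0.99 on the log2 scale. In MRL/+ 20 of the 36 genes were well above background in all 4 mice, where all 36 were in MRL/lpr and in Fn14ko.

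The genes around the G proteins, taken from 7 lists with 63 quantified genes, had 11 called in MRL/lpr against MRL/+ (17.5%, against 14.4% of all genes), 7 higher and 4 lower. In Fn14ko against MRL/+ 0 of the 63 passed (against 0.954% of all genes), and in MRL/lpr against Fn14ko 2 passed (3.17%, against 4.57% of all genes), both higher. Of the 11, 9 lost the call without MRL/+ replicate 4, all but Kcnj9 and Kcnj3, and 4.51% of all genes passed in that fit. Prkar2a was also lost without MRL/lpr replicate 2 (9.65% of all genes passed) and Rgs17 without MRL/lpr replicate 4 (10.5%). Without MRL/lpr array 1 the same 9 were lost, with 6.17% of all genes passing. With dim spots kept all 11 were lost, with 0.0755% of all genes passing, and Prkar2a was -0.15 and Rgs20 -0.19.

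Of the 6 protein kinase A subunits, which bind cAMP or carry the kinase activity it releases, 2 rose and 1 fell in MRL/lpr against MRL/+. Prkacb, a catalytic subunit, averaged 19.4 ± 1.95 over the MRL/lpr mice and 8.58 ± 4.27 over the MRL/+ mice (SD, n = 4), or 1.34 on the log2 scale (limma adjusted p = 0.0257). Prkar2b, a regulatory subunit, rose by 0.87 (adjusted p = 0.0190), and the related Prkar2a fell by 0.62 (adjusted p = 0.0266). Of the 13 phosphodiesterases that degrade cAMP, 0 passed against MRL/+, and Pde4c was higher in MRL/lpr than in Fn14ko (1.65, adjusted p = 0.00365), at 31.6 to 51.9 against 8.80 to 18.4.

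Of the 16 RGS proteins, which speed the return of the α subunit to its GDP form, Rgs11 (1.41, adjusted p = 0.00975), Rgs4 (1.19, adjusted p = 0.00949) and Rgs17 (0.75, adjusted p = 0.0249) rose in MRL/lpr against MRL/+, and Rgs20 fell (-0.79, adjusted p = 0.0225). Rgs11 had 5.11, 6.51, 4.605 and 4.20 in MRL/lpr, 2.22, 2.58, 4.71 and 2.82 in Fn14ko, and 1.41, 1.58, 2.75 and 2.10 in MRL/+, so that the MRL/lpr mice overlapped only with Fn14ko replicate 3. Arrb1 (β-arrestin) rose among the 7 receptor kinases and arrestins (1.43, adjusted p = 0.0203), and Gpsm1, an activator of G protein signalling, was the 1 gene to fall among the 8 chaperones and activators (-1.15, adjusted p = 0.00931). The 9 cAMP effectors and transcription factors gave 0 calls in all 3 comparisons.

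Of the 4 potassium channel subunits that βγ dimers open, Kcnj9 rose and Kcnj3 fell in MRL/lpr against MRL/+. Kcnj9 had 4.92, 4.08, 4.10 and 3.68 in MRL/lpr, 1.16, 1.14, 2.66 and 1.196 in Fn14ko, and 1.21, 1.10, 1.59 and 1.52 in MRL/+. The MRL/lpr mice were above all others, and the log2 fold change was 1.64 against MRL/+ (SE 0.27, limma adjusted p = 0.00283) and 1.54 against Fn14ko (adjusted p = 0.00660). Its spot lies in row 483, near which 10.5% of retained spots stood apart on MRL/lpr array 1 and 0% on array 2, and without array 1 the value against MRL/+ was 1.53 (adjusted p = 0.0127). Of the genes above, 1 of the 2 Rgs4 spots (row 488) and 1 of the 3 Prkar2b spots (row 487) also lie where 11% and 10.2% of nearby spots stood apart on that array. Kcnj3 was 0.247 to 0.317 in MRL/lpr and 0.597 to 0.680 in MRL/+ (-1.18, SE 0.23, adjusted p = 0.00633). Its call was lost in 4 of 28 alternatives. These were Agilent's processed signal, the Cy3 mice alone, the fit without both Cy5 mice of MRL/+, and dim spots kept. Its signals are dim, and the lowest signal of any retained spot was 0.344, 0.5003, 0.0859 and 0.236 in the 4 MRL/+ mice. The part of these floors in the Kcnj3 result was not tested.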

How the data were processed

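Cortex RNA of 12 mice, 4 in each of 3 groups, was read on 6 Agilent 2-colour arrays. The deposited values are spot intensities that the authors extracted with Agilent Feature Extraction, per the file headers, as mean and local background signals, processed signals and marks per channel. Agilent's log ratios were not used, since each array holds 2 mice of the same group.

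Control spots, marked spots and spots under 2 times the background in any sample were left out. Signals were background-corrected by normexp (offset 50), scaled to the median retained spot and averaged over the spots of a gene. Group and dye were fitted on the log2 scale in limma 3.58.1 (R 4.3.3), with the array as a random block and Benjamini-Hochberg adjustment over 17302 genes. The intensities carry no counts, so the number of mice limits the precision. On simulated data the fit called 39 of 100 genes changed by 1 log2 unit, 82 of 100 changed by 2, and 13 of 17102 unchanged genes (MRL/lpr against MRL/+). Those 13 false calls stand beside the 39 and 82 true calls. The simulation left 17102 of 17302 genes unchanged, where 14.4% of all genes passed in the measured comparison. The measured spread between mice differed by group. The median SD over all genes, on the log2 scale, was largest for MRL/+ (0.384), then Fn14ko (0.260), then MRL/lpr (0.225). Whether the simulated rates hold for the measured data was not tested.

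The members and lists were chosen with earlier results of these data known. The naming rule gave values by mouse for members past the threshold, for Adcy3 and Gng3, and for the brightest member of each class, and named at most 3 genes a direction in each list of surrounding genes. Other genes were named after their values were seen, for groups that did not overlap, extreme values, probes that differed or samples that stood apart. Alternatives changed the background correction, scaling, filters, merging of spots, covariates, samples and test.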

Additional observations from a re-analysis of the deposited data

Results flagged for a closer look

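Of 108 groups of 4 mice tested, 3 for each of the 36 genes, 6 held a mouse whose gap to the nearest other mouse was a larger share of the group's range than Dixon's 95% limit, which chance gives in about 1 in 20 groups. Of the 6, 4 were Fn14ko replicate 1, the mouse with the high striatum markers. Its signals were 9.91 for Adcy5, 16.2 for Gng7, 4.83 for Gnb5 and 4.56 for Gng5. MRL/lpr replicate 3 was high for Adcy5, at 3.52. MRL/+ replicate 4 was low for Gna12, at 1.99.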

How the results depend on the processing

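Of the 36 genes, 2 passed when MRL/lpr was set against MRL/+, 0 when Fn14ko was set against MRL/+, and 0 when MRL/lpr was set against Fn14ko. Of all genes 14.4%, 0.954% and 4.57% passed. In that order the numbers were 5, 2 and 4 with background subtraction (29.7%, 16.4% and 16.5% of all genes), 8, 0 and 1 with Agilent's processed signal (17.7%, 5.85% and 10.9%), 4, 1 and 3 with loess (27.1%, 8.22% and 12.8%), 4, 0 and 1 with 75th-percentile scaling (17.2%, 3.49% and 5.47%), 4, 0 and 1 of 20 genes with only spots well above background (29.7%, 11.5% and 16.1%), and 6, 2 and 3 without the array block (30%, 10.9% and 10.3%). With the replicate block they were 4, 2 and 1 (32.3%, 6.99% and 9.39%). Replicate numbers fix dye and array, and the deviations of same-numbered mice correlated at 0.081 to 0.34, -0.028 to 0.72 and -0.13 to 0.28 in the 3 comparisons. Each comparison had a pair under 0.1, so the numbers were not taken as pairs. With the dye means removed, Fn14ko against MRL/+ had 0.81 and 0.39, so this reason does not hold for it. The other comparisons then had 0.029 to 0.084. In MRL/lpr against MRL/+ the number was 0 with dim spots kept (0.0755% of all genes), 1 without the dye term (15.5%), 1 with the 8 mice compared (12.3%), 0 without both Cy5 mice of MRL/+ (5.03%), 1 without MRL/lpr array 1 (6.17%), 0 without MRL/lpr array 2 (9.07%) and 1 without MRL/+ array 1 (10.1%). Without MRL/lpr array 1 it was 2 in MRL/lpr against Fn14ko. Leaving out 1 mouse gave 0 to 6, 0 to 2 and 0 to 1, with the 6 and the 2 without MRL/+ replicate 3 (32.1% and 12.5% of all genes) and the 0 in the first comparison without MRL/lpr replicate 2 (9.65%) or MRL/+ replicate 4 (4.51%). The methods' t-test called 5, 4 and 6 unadjusted and 0, 0 and 0 after Benjamini-Hochberg. The Gng13 call was lost in 12 of 28 alternatives (0.28 to 1.38) and the Adcy3 call in 13 of 28 (-1.46 to -0.36), both with no change of sign. Of the calls of surrounding genes in that comparison, Prkar2a and Rgs17 were each lost in 11 of 29 alternatives, Prkacb and Rgs20 in 9 and Arrb1 in 8, with no change of sign. The causes were not tested.

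Values that changed sign had not passed the threshold. In Fn14ko against MRL/+, Gng13 was -0.10 with processed signal, -0.092 with loess, -0.079 with 75th-percentile scaling, -0.056 with only spots well above background, -0.011 without both Cy5 mice of MRL/+ and -0.072 without MRL/+ array 1. Adcy3 was 0.13 with loess, 0.54 with dim spots kept, -0.27 to 0.0042 over the fits without 1 mouse (the highest without Fn14ko replicate 4), 0.10 without Fn14ko array 2 and 0.017 without MRL/+ array 1. Adcy5 was -0.0077 with 75th-percentile scaling, -0.28 (without Fn14ko replicate 1) to 0.56 over the fits without 1 mouse, -0.24 without Fn14ko array 1 and -0.0015 without MRL/+ array 1. Adcy9 was -0.077 with processed signal, and Gng7 was -0.11 with the mean of log2 values. In MRL/lpr against Fn14ko, Adcy5 was -0.46 to 0.38 over the fits without 1 mouse (the highest without Fn14ko replicate 1) and 0.34 without Fn14ko array 1, and Gnal was -0.24 without MRL/lpr array 2. In MRL/lpr against MRL/+ with dim spots kept, Gng10 was 0.13, Gng2 was 0.049 and Gng3 was 0.27, and Gng3 was 0.035 without MRL/+ array 2. Keeping dim spots scales to the median of more spots, which raised Gng10, Gng2 and Gng3 by the same amount.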
